A study of Homo sapiens with 2 samples.

Results

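The chromatin-bound RNA of SH-SY5Y neuroblastoma cells was examined for 8 genes of nuclear RNA bodies, 4 nuclear RNAs (MALAT1, NEAT1, MIAT and TUG1) and 4 genes of paraspeckle proteins (NONO, SFPQ, PSPC1 and RBM14). They were named by symbol, and all 8 were matched, through GENCODE version 44, to an identifier among the 60554 genes with a row in the count files. SH-SY5Y is a human neuroblastoma cell line grown in culture, here without genetic modification, treatment or any second condition. Cells were fractionated, the RNA that stayed with chromatin was sequenced from both ends as directional libraries with molecular identifiers, and 2 replicates were deposited. No source used here says whether the replicates came from separate cultures. A p-value between them therefore says only whether these 2 libraries differ by more than counting error, and such a difference may be technical. Bulk RNA of this kind gives a sum over all cells, in which fewer cells with an RNA and less RNA per cell cannot be told apart.

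The count on the strand of the gene is called the sense count. It summed to 4155210 read pairs over all genes in replicate 1 and 3425309 in replicate 2, and each count was scaled to 1000000 counts in genes (CPM) with these totals. All 6 markers of sympathetic neuroblasts that were looked up, HAND2, ISL1, GATA3, TFAP2B, ELAVL4 and STMN2, had mean sense counts between 887 and 3188.5. Of 8 markers of glial, endothelial, blood and epithelial cells, 7 were at 0 in both libraries, and CDH1, an epithelial cadherin, had 1 count in each. In such a library a count of 0 allows a level of up to 0.722 CPM in replicate 1 and 0.876 CPM in replicate 2.

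Paraspeckles are RNA-protein bodies of the nucleus that are built on the long isoform of NEAT1. NONO, SFPQ and PSPC1 form one family of RNA-binding proteins, called DBHS proteins, that pair with each other and coat this RNA, while RBM14 carries a prion-like domain and joins the NEAT1-bound proteins into a body. MALAT1 lies in nuclear speckles, which store splicing factors, MIAT (also called Gomafu) marks a separate nuclear domain in neurons and binds splicing factors, and TUG1 is a mostly nuclear RNA that has been linked to gene repression and cell growth.

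Sequences are shown here for the features that set these genes apart from each other, read from the reference genome of build GRCh38 in the direction of the RNA. MIAT is known for repeats of TACTAAC, the letters of the intron branch point, to which the splicing factor SF1 binds. The 213 bases at chr22:26672023-26672235 on the plus strand, inside an exon of MIAT, hold 4 of them, given in capitals.
MIAT: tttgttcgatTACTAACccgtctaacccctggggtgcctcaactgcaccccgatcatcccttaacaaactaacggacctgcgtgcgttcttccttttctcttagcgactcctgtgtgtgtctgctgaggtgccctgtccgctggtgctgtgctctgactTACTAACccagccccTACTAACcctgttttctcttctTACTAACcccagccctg

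Over the longest annotated transcript of each gene, TACTAAC was found 7 times in MIAT (0.690 per kb), 1 time in NEAT1, and not in MALAT1 or TUG1. The search took the strand of the RNA, and the other strand of the MIAT transcript held the letters 1 time. Of 18867 lncRNA genes searched in the same way, with TUG1 among them, 3.59% held at least 1 and 3 genes held 7 or more. Length matters for such a count, and of the 53 genes with a transcript of at least 10000 bases 32.1% held at least 1 and 5.66% held 7 or more. A gene annotated as miscellaneous RNA on the same strand, ENSG00000275942, covers 72 bases of the printed window and 3 of its 4 repeats. The exons of an antisense gene, ENSG00000206028, cover the whole window.

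MALAT1 and NEAT1 are known to end in a fold like that of a tRNA, which is cut off to make a small RNA called mascRNA or menRNA. The annotation has a small RNA gene at each of these places. The one in MALAT1 lies at chr11:65506117-65506173 and the one that starts right behind the annotated end of NEAT1 at chr11:65445541-65445598, both on the plus strand. Capitals mark the 40 bases that were the same in an alignment of the pair.
MALAT1: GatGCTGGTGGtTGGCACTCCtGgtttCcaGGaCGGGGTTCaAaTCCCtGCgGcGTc
NEAT1: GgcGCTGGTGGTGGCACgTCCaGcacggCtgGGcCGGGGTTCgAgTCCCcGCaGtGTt
The small RNA gene of MALAT1 (ENSG00000274072) was listed at 0 in both libraries and that of NEAT1 (ENSG00000275948) at 2 counts in replicate 1 and 0 in replicate 2. The first lies inside an exon of MALAT1 on the same strand, so that a read pair there overlaps both genes and is counted for neither.

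The coding sequences of the DBHS genes are related, and the most similar stretch without gaps is shown because reads from such a stretch must be told apart between the genes. Positions count from the A of the start codon, and capitals mark the 43 of 60 bases that are the same in all 3 genes.
NONO (655 to 714): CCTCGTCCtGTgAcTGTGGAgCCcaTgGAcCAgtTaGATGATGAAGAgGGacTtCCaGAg
PSPC1 (679 to 738): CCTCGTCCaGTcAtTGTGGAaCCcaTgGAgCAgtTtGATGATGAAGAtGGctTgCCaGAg
SFPQ (1324 to 1383): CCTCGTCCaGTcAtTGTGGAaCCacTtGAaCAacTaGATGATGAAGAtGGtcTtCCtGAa
In local alignments of the whole coding sequences, NONO and SFPQ shared 72.6% of 859 aligned bases, NONO and PSPC1 74.5% of 989, and SFPQ and PSPC1 75.5% of 975. The longest run of identical bases in these alignments was 23, well under the 75 bases that were read from each end. RBM14, which is not of this family, aligned with the others over 56 bases or fewer. The coding sequences hold 471 codons in NONO, 707 in SFPQ, 523 in PSPC1 and 669 in RBM14.

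The 8 genes together held 41655 sense counts in replicate 1, 1.00% of all counts in genes, and 35735 in replicate 2, 1.04%. Most of these came from MALAT1 and NEAT1, which made up 78.5% of the counts of the 8 genes in replicate 1 and 80.5% in replicate 2. A mean sense count of at least 10 was reached by all 8 genes, beside 24.7% of all genes with a row and 26.1% of those found in GENCODE, namely 59.4% of the protein-coding genes and 12.2% of the lncRNA genes.

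MALAT1, the speckle RNA, was the gene with the second highest CPM of all. It lies at chr11:65497640-65508073 on the plus strand, and the exons of its 66 annotated transcripts together fill all 10434 bases of the gene. Sense counts were 22613 in replicate 1 and 20467 in replicate 2, which gave 5709 ± 377 CPM (SD, n = 2). For a comparison between genes the CPM was divided by the kb of exon (union of all annotated exons), and on this scale MALAT1 stood at 522 CPM per kb in replicate 1 and 573 in replicate 2, a mean of 547 ± 36.1. Among 29127 genes with at least 1000 exon bases it ranked 1 by CPM per kb. Without this limit on length it ranked 10 of the 56558 genes found in GENCODE.

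NEAT1, the scaffold of paraspeckles, ends 52.1 kb before MALAT1 starts, on the same strand at chr11:65422774-65445540. Exons fill all of its 22767 bases. It had 10105 and 8295 sense counts, and the levels of 107 and 106 CPM per kb (mean 107 ± 0.317, n = 2) were almost the same in both libraries. By CPM, where its length counts in full, it ranked 8 of all genes. By CPM per kb it ranked 74 of the 29127 genes and 8 of the 6588 lncRNA genes of at least 1000 exon bases. Without this limit on length it ranked 171 of all genes found in GENCODE and 13 of the lncRNA genes. The 9 annotated transcripts overlap, so that a count per gene does not divide the short isoform from the long one that builds the body.

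MIAT, at chr22:26646411-26676475 on the plus strand, was the lowest of the 8 genes per kb. It had 554 sense counts in replicate 1 and 458 in replicate 2, and its level of 8.39 and 8.41 CPM per kb (mean 8.40 ± 0.0171, n = 2) was 65.1 ± 4.17 times lower than that of MALAT1. Its 30 annotated transcripts have exons over 15892 bases in 10 blocks, 52.9% of the gene. This length is more than that of any single transcript of the gene, and the level moves with the choice, as given below.

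TUG1, at chr22:30969245-30979395 on the plus strand, lies 4.29 Mb behind MIAT. GENCODE version 44 lists it as protein-coding, since it has an annotated reading frame, although it is known as a long non-coding RNA. It had 467 and 402 sense counts over 10151 exon bases, which gave 11.1 and 11.6 CPM per kb (mean 11.3 ± 0.346, n = 2). Both libraries of TUG1 were above both of MIAT per kb, by a factor of 1.35, while its CPM of 115 ± 3.52 was below the 134 ± 0.272 of MIAT.

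SFPQ, a splicing factor and DBHS protein that paraspeckles need, was the highest of the protein genes. It lies at chr1:35176378-35193446 on the minus strand, with 7720 exon bases. It had 4997 sense counts in replicate 1 and 3814 in replicate 2, levels of 156 and 144 CPM per kb (mean 150.0 ± 8.16, n = 2). By CPM per kb it ranked 34 of the genes with at least 1000 exon bases and 92 of all genes found in GENCODE. Both libraries of SFPQ were thus above both of NEAT1 per kb.

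NONO, the most common partner of SFPQ, lies at chrX:71254814-71301522 on the plus strand. It had 1855 and 1498 sense counts, and its 39.8 and 39.0 CPM per kb (mean 39.4 ± 0.573, n = 2) were 3.81 ± 0.152 times below the level of SFPQ. Its 40 annotated transcripts spread over 11222 exon bases, while the canonical transcript has 2661.

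PSPC1, the remaining DBHS protein of the 4, lies at chr13:19674752-19783019 on the minus strand, where exons are 4.45% of a gene of 108268 bases. Its sense counts of 696 and 542 gave 34.8 and 32.8 CPM per kb (mean 33.8 ± 1.36, n = 2), so that the libraries of NONO lay above those of PSPC1 by a factor of 1.16. RBM14, at chr11:66616626-66629934 on the plus strand 1.11 Mb behind MALAT1, was the lowest of the 4, with 368 and 259 sense counts and 13.7 and 11.7 CPM per kb (mean 12.7 ± 1.41, n = 2).

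**Figure D1:**
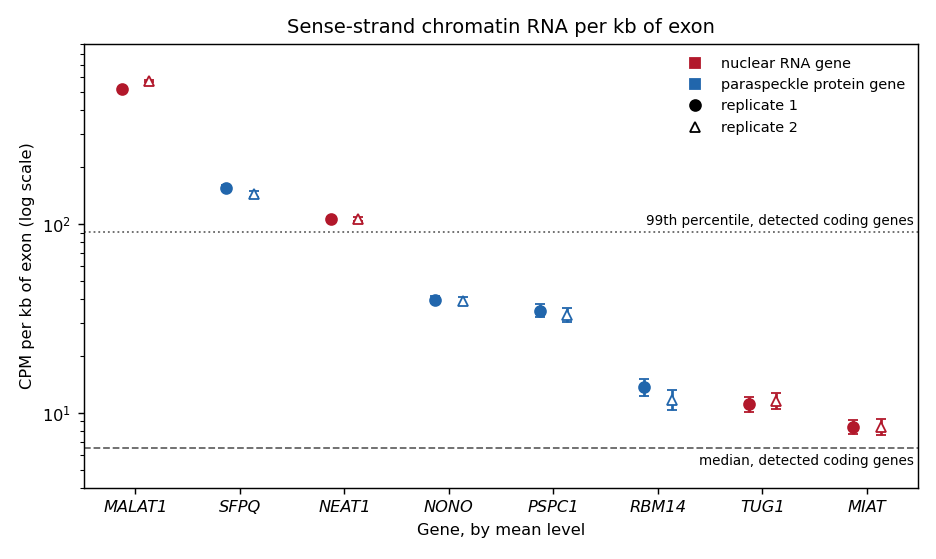
CPM per kb of exon (log scale) of the 8 genes in both libraries, with 1 point for each library and its 95% Poisson interval as a bar; lines mark the median (6.50) and the 99th percentile (90.9) of coding genes with a mean sense count of at least 10. The order runs from MALAT1 at 547 to MIAT at 8.40, the nuclear RNAs lie at both ends of it, and RBM14 in replicate 2 (11.7) is almost level with TUG1 in replicate 2 (11.6).

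By CPM per kb the order was MALAT1, SFPQ, NEAT1, NONO, PSPC1, RBM14, TUG1 and MIAT, and it was the same in both libraries. For every pair of neighbours both libraries of the one lay above both of the other. The mean of MALAT1 was 3.65 times that of SFPQ, SFPQ 1.41 times NEAT1, NEAT1 2.71 times NONO and PSPC1 2.67 times RBM14. RBM14 and TUG1 differed least, by a factor of 1.12. In replicate 1 their 95% Poisson intervals, 12.3 to 15.1 CPM per kb for RBM14 and 10.1 to 12.1 for TUG1, lay apart. In replicate 2 they were 10.3 to 13.2 and 10.5 to 12.7 and overlapped almost fully, so that the order of these genes held beyond counting error in 1 of the 2 libraries.

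The comparison between both groups asked which had more exon counts per kb on chromatin, the nuclear RNAs or the 4 protein genes. Pairs in introns are left out, so unspliced RNA is counted only in its exons. Exons fill all of MALAT1, NEAT1 and TUG1 and 52.9% of MIAT. They fill a smaller share of each of the 4 protein genes, down to 4.45% of PSPC1. Sense counts were 4155210 of 22446529 uniquely mapped pairs in replicate 1 and 3425309 of 19566145 in replicate 2. How far intron reads would change the comparison was not tested. The median of the 4 nuclear RNAs was 58.9 CPM per kb in replicate 1 and 59.0 in replicate 2, and that of the 4 protein genes 37.3 and 35.9. The ratio of these medians was 1.58 and 1.64, a mean of 1.61 ± 0.0430 (SD, n = 2), and a test was not made, since the genes are not replicates. The spread within the groups was far wider than the ratio, at 62.2-fold and 68.1-fold from the lowest to the highest nuclear RNA and 11.4-fold and 12.4-fold among the protein genes. In each library a nuclear RNA was above a protein gene in 7 of the 16 possible pairs, all 4 of MALAT1 and 3 of NEAT1, while MIAT and TUG1 were below all 4 protein genes. With NEAT1 and MALAT1 left out the ratio was 0.270.

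The ratio turned with the length by which the counts were divided, and its direction is therefore not settled. Divided by the longest transcript of each gene it was 0.777, and by the Ensembl canonical transcript, an alternative added after the data were seen, 0.611. The lengths of MALAT1 and NEAT1 hardly change between these choices, so that their levels stayed at 547 and 107 CPM per kb. NONO rose from 39.4 per kb of all exons to 166 per kb of its canonical transcript, above NEAT1, and SFPQ from 150.0 to 310, still below MALAT1. PSPC1 went to 66.9, MIAT to 35.5, TUG1 to 15.4 and RBM14 to 15.3. Under the 3 lengths MALAT1 was the highest of the 8 genes and SFPQ the next.

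**Figure D2:**
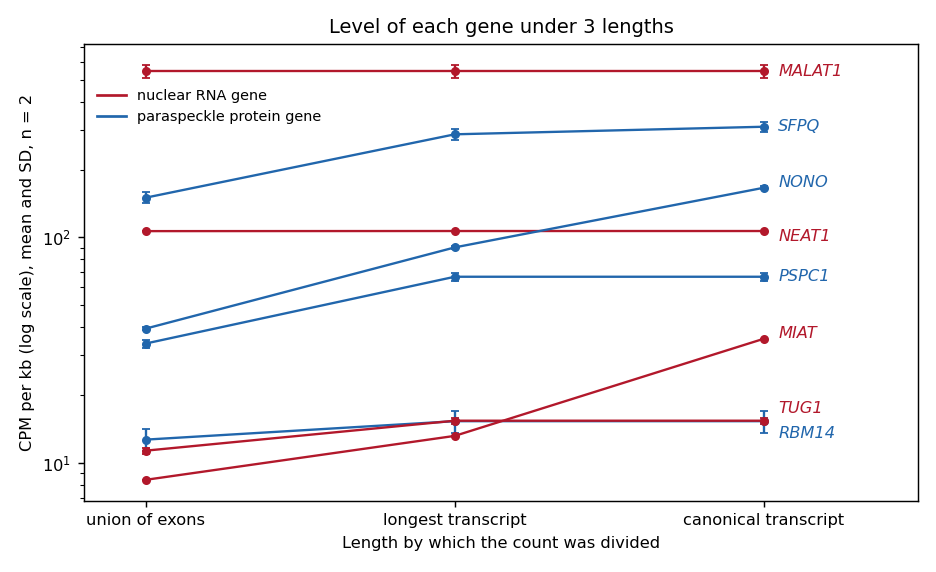
CPM per kb (log scale, mean and SD of 2 libraries) of the 8 genes when the count was divided by the union of exons, the longest transcript or the Ensembl canonical transcript. The lines of MALAT1 and NEAT1 are flat, while NONO climbs from 39.4 to 166 and passes NEAT1 at 107, and MIAT climbs from 8.40 to 35.5.

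Set beside all other genes, the 8 were mostly high. For this comparison and for the ranks above, lengths other than the union of exons were not tried. Protein-coding genes with a mean sense count of at least 10 had a median of 6.50 CPM per kb and a 99th percentile of 90.9, and lncRNA genes of the same kind a median of 4.20. All 4 protein genes were above the coding median, and SFPQ was above the 99th percentile. MIAT and TUG1, the lowest, were still above the lncRNA median.

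Almost all reads of these genes lay on the strand of the gene. The opposite strand held 11.5% of the counts over all genes in replicate 1 and 11.3% in replicate 2. A share above 1% was found for 56.9% of 19327 genes with at least 20 counts over both strands, but for 1 of the 8 genes, PSPC1. Of those found in GENCODE it was found for 50.8% of coding and 76.9% of lncRNA genes, while 29.7% of all had a share under 0.05%. These genes were not matched to the 8 by depth, so a low share is not particular to the 8. For MALAT1 there were 8 opposite counts in each library (0.0371% of the pooled counts of both strands), and for NEAT1 1 and 0 (0.00543%). MIAT had 4 and 3 (0.687%), NONO 2 and 0 (0.0596%), and SFPQ 17 and 7 (0.272%). TUG1 and RBM14 had none, which allows a share of up to 0.345% of 869 counts and 0.478% of 627. PSPC1 had 24 and 22 opposite counts, 3.58% of its pooled counts, with a 95% Clopper-Pearson interval of 2.63% to 4.75%. These intervals and limits cover counting error only.

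PSPC1 shares 36 exon bases with PSPC1-AS2, an antisense lncRNA at its 3′ end that had 6 and 14 sense counts of its own. The opposite counts of PSPC1, 24 and 22, were higher than these in both libraries, and what else they hold was not tested.

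**Figure D3:**
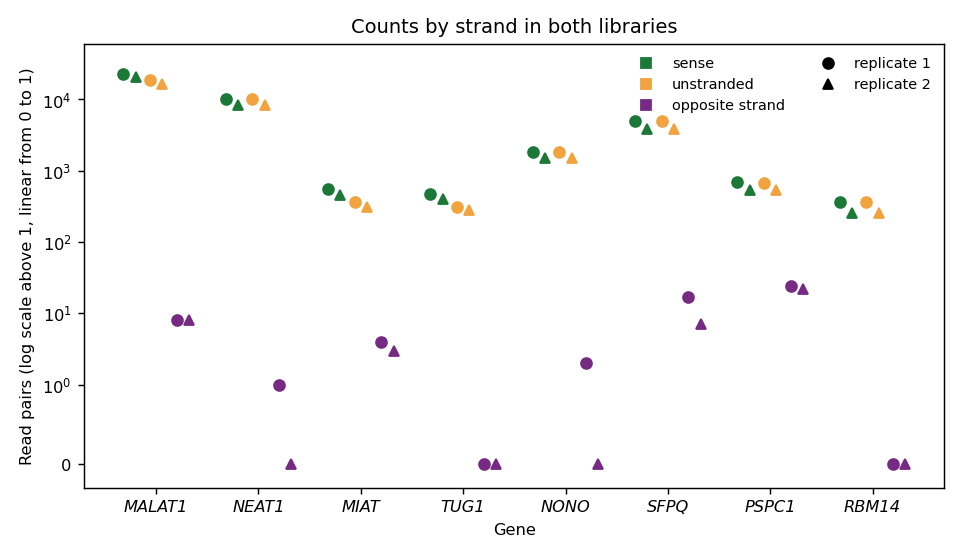
Read pairs (log scale above 1, linear from 0 to 1) counted for each gene on its own strand, without regard to strand, and on the opposite strand, in replicate 1 (circles) and replicate 2 (triangles). Opposite counts stay at 24 or fewer for all 8 genes, and the unstranded counts of MALAT1, MIAT and TUG1 lie visibly below their sense counts, with those of PSPC1 lower by 13 and 12 read pairs.

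When strand was ignored, 3 of the nuclear RNAs lost counts. MALAT1 had 19009 unstranded counts in replicate 1 and 16575 in replicate 2, 84.1% and 81.0% of its sense counts. MIAT kept 66.8% and 67.0%, and TUG1 66.6% and 69.4%. NEAT1, which has no annotated antisense gene over its exons, had 10106 and 8295. PSPC1 lost 13 and 12 counts and kept 98.1% and 97.8%, while the unstranded counts of RBM14 were equal to its sense counts. Without strand a read pair over exons of genes on both strands is counted for neither gene.

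The antisense genes differ between these loci. TUG1 has ENSG00000269987 and ENSG00000269972 over its 3′ part, with no sense counts of their own and opposite counts, which are on the strand of TUG1, of 85 and 57 for the first and 72 and 65 for the second. TUG1 lost 156 and 123 counts when strand was ignored. ENSG00000206028 covers 2148 exon bases of MIAT, with 5 and 4 sense counts and 246 and 206 on the strand of MIAT, beside a loss of 184 and 151 for MIAT. The antisense gene over MALAT1 with a row in the files, ENSG00000270117, had 3 and 5 sense counts and 28 and 25 on the strand of MALAT1, beside a loss of 3604 and 3892. TALAM1, the known antisense RNA of MALAT1, covers 8121 of its exon bases in GENCODE version 44, and its identifier there has no row. An antisense gene under another identifier, among the 3996 genes not found in that version, was not searched for. The level of TALAM1 is therefore not given, beside 8 opposite counts of MALAT1 in each library. What makes up the loss of MALAT1 was not tested.

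Reads of the same strand can also be lost to a nested gene. RBM14-RBM4, a readthrough transcript into the next gene, shares 432 exon bases (6.67%) with RBM14 and had 35 counts in each library, so that reads of these bases are in the count of neither. Genes annotated as miscellaneous RNA, and in MALAT1 also the small RNA gene, are nested in exons on the same strand, all at 0. They take up 1.46% of the exon bases of MALAT1, 1.69% of NEAT1 and 6.40% of TUG1, and together with MIATNB 6.21% of MIAT. MIATNB, the neighbour of MIAT with 241 shared exon bases, had 67 and 59 counts. Divided by the exon bases of no other gene on the strand, the 8 genes kept their order.

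Copies elsewhere in the genome can take reads away too, since STAR counts uniquely mapped pairs only. Of all stretches of 75 exon bases, the length of 1 read as sequenced, 11.25% in PSPC1 and 2.85% in NONO occur a second time on the 25 chromosomes searched, 0.566% in SFPQ, 0.444% in MALAT1, 0.0397% in NEAT1 and 0 in MIAT, TUG1 and RBM14. Reads were trimmed before mapping to a length that is not given, and shorter stretches can have more copies. The pseudogenes named after these genes had few counts, 8 and 7 for NONOP2, 1 and 5 for PSPC1P1 and 0 in both libraries for PSPC1P2. At this length, PSPC1 thus has the largest share of exon stretches with more than 1 place to map.

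Genes of the same bodies gave the setting of these levels. Counts of all listed genes were divided by the union of exons only. Under the other lengths NONO and SFPQ rose while MALAT1 and NEAT1 hardly changed. How far the orders below depend on the length was not tested. Of 25 other proteins known from paraspeckles all 25 had a mean sense count of at least 10, with a median of 15.9 CPM per kb, and 19 were above the 6.50 CPM per kb that is the median of coding genes with such a count. HNRNPH1, a splicing regulator, was the highest at 217 ± 15.3 CPM per kb, followed by RBMX at 143 ± 15.3, and the lowest were TAF15 at 1.10 ± 0.220 and FAM98A at 1.54 ± 0.188 (SD, n = 2). By their means, HNRNPH1 alone of the 25 was above SFPQ, and 4 of the 25 were above NEAT1. HNRNPK, which is needed for the long isoform of NEAT1, had 108 CPM per kb in replicate 1 and 120 in replicate 2. CPSF6, a subunit of the cleavage factor that favours the short isoform, had 121 and 135, above HNRNPK in each library.

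For nuclear speckles, in which MALAT1 lies, 10 of 10 listed protein genes had a mean sense count of at least 10 and the median was 33.1 CPM per kb. SRSF2 was the highest at 256 ± 3.12 CPM per kb, followed by SRSF1 at 91.7 ± 8.85, both splicing factors of the SR family. SRRM1 at 19.5 ± 1.23 and RNPS1 at 13.1 ± 1.70 were the lowest. Per kb of the union of exons, MALAT1 was above all 10 of them in both libraries.

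The 4 splicing regulators reported to bind MIAT were all detected and, with the exception of CELF3, above it. SRSF1, also in the speckle list, led them, SF1, the branch point protein that binds the letters printed above, stood at 41.7 ± 1.19 CPM per kb, and QKI at 10.8 ± 0.861. CELF3, a neuronal regulator, had 8.53 and 6.29 CPM per kb, which lie on both sides of MIAT at 8.39 and 8.41.

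Other long non-coding RNAs differed widely. Of 8 further RNAs known to act in the nucleus 6 had a mean sense count of at least 10, with a median of 3.98 CPM per kb over the 8. KCNQ1OT1, the imprinted antisense RNA, was the highest at 14.5 ± 1.23 CPM per kb and FTX, from the X inactivation centre, next at 8.71 ± 0.245, while FIRRE had 3 and 1 counts and MEG3 0 and 1. MALAT1 and NEAT1 were above all 8, and MIAT and TUG1 lay between KCNQ1OT1 and the median of the list. The 8 were a choice and set no upper limit for nuclear RNAs. XIST, also from the X inactivation centre, was not among them and had 29325 and 24793 counts. Its 283 CPM per kb lay above NEAT1 and below MALAT1, and its 7148 CPM above both.

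Of 5 RNAs known mainly from the cytoplasm 4 had a mean sense count of at least 10. GAS5 at 214 ± 12.3 CPM per kb and SNHG1 at 149 ± 0.192, both hosts of snoRNAs, were above NEAT1. DANCR was at 4.10 ± 0.449 and CYTOR had 5 and 2 counts. The whole RNA of the cells was not measured, so none of these levels is a share of an RNA that stays on chromatin.

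Finally, the 2 libraries were set against each other to see how far each level could be trusted. An exact two-sided binomial test of the sense counts against the library totals, with Benjamini-Hochberg adjustment over 14978 genes with a sum of at least 20 counts, called 1099 genes (7.34%; 4.9% higher in replicate 1 and 2.44% higher in replicate 2). Among the 3835 genes with a sum of at least 500 counts it called 17.2%. This compares the libraries and not conditions. It called 2 of the 8 genes. MALAT1 was lower in replicate 1, at 0.911 times the CPM of replicate 2 (95% interval 0.894 to 0.928, exact binomial test, adjusted p = 3.3e-19). SFPQ was higher in replicate 1, at 1.08 times (1.04 to 1.13, exact binomial test, adjusted p = 0.00924).

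The other 6 genes did not pass the test. RBM14 had the widest ratio of these, 1.17 (0.996 to 1.38, exact binomial test, adjusted p = 0.28), and NEAT1, with many more counts, 1.00 (0.975 to 1.03, adjusted p = 0.946 in the same exact test). The ratio was 0.997 for MIAT, 0.958 for TUG1, 1.02 for NONO and 1.06 for PSPC1. On the log2 scale, MALAT1 differed by -0.13 and SFPQ by 0.11, beside a median size of 0.12 over the genes with a sum of at least 500 counts. That median takes in genes with far fewer counts than MALAT1 or SFPQ, whose counting error is wider. It therefore does not show that genes counted as deeply as these differ as much. Each of these ratios was smaller than the distance to the next gene in the order, except that of RBM14 (1.17, against 1.12 to TUG1).

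**Figure D4:**
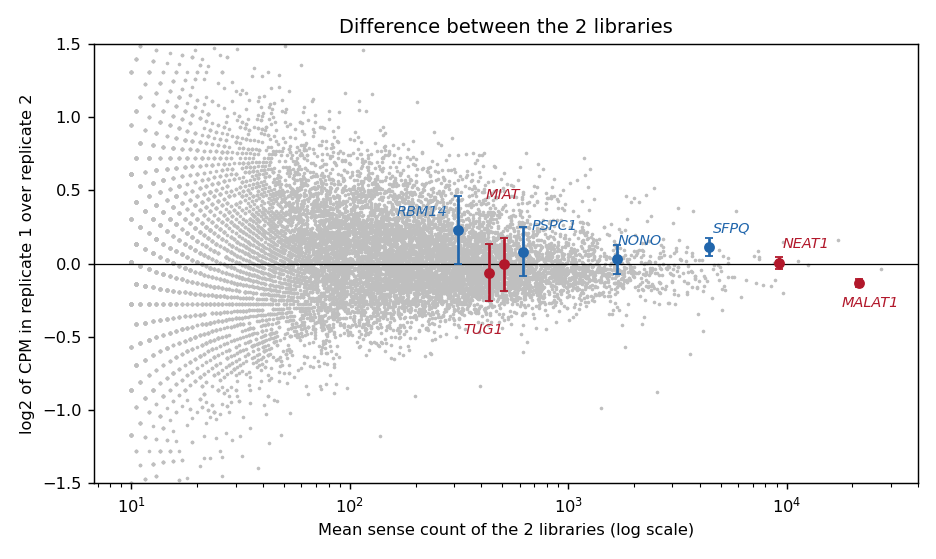
Log2 of the CPM in replicate 1 over that in replicate 2 against the mean sense count (log scale) for 14978 genes (grey), with the 8 genes in colour and their 95% intervals as bars. The axis ends at 1.5 in both directions and leaves out 69 genes, and the intervals of MALAT1 (-0.13) and SFPQ (0.11) do not reach 0.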

How the data were processed

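RNA bound to chromatin in SH-SY5Y cells was sequenced in 2 replicates. The authors extracted the molecular identifiers from the reads and trimmed the reads. They filtered out spike-in and rRNA reads with Bowtie, removed duplicates with UMI-tools, mapped with STAR and deposited raw read pair counts per gene, unstranded and for each strand. The submitters' processing notes name the build hg38. For tool versions, options and annotation, the sources used here give nothing. STAR leaves out pairs with several mapping places, pairs over exons of several genes, and introns. Column 4 was taken as sense and column 3 as opposite, by their totals. Of 60554 genes 56558 were found in GENCODE version 44 (GRCh38), and none of the other 3996 is named.

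CPM was divided by the kb of the union of exons. Intervals at 95% are exact. The binomial test was tested on simulated data. Alternatives were strand columns, single replicates, other lengths, size factors and count filters. Members and lists were chosen with earlier results of these data known. Named genes are the 8 members and the 2 highest and 2 lowest of each list by CPM per kb. Genes that overlap member exons with a mean count of at least 10 are named too. Others were added after their values were seen, such as XIST, the HNRNPK and CPSF6 pair, the antisense, small and miscellaneous RNA genes and the pseudogenes. Python 3.11.15, numpy 2.4.6, pandas 2.3.3, scipy 1.17.1, Biopython 1.88 and matplotlib 3.10.9 were used.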

Additional observations from a re-analysis of the deposited data

Results flagged for a closer look

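Genes that overlap the exons of the 8 genes and take no part in the comparisons had mean sense counts above the 3 counts that a 0 allows. They were ZMYM3 (257), whose 5′ end shares 187 exon bases with NONO on the opposite strand, MIATNB (63) and RBM14-RBM4 (35) on the strand of MIAT and RBM14, and, on the opposite strand, PSPC1-AS2 (10) over PSPC1, ENSG00000206028 (4.5) over MIAT and ENSG00000270117 (4) over MALAT1. Strand keeps the counts of opposite genes apart here, and for the same-strand pairs the pairs that overlap both genes are in no count.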

How the results depend on the processing

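The median level of the nuclear RNAs over that of the paraspeckle protein genes, 1.61, was 1.58 in the unstranded column and 1.65 per kb of exon bases of no other gene, and it ranged from 1.58 to 1.64 when either replicate was left out. It turned below 1 with the longest transcript (0.777), with the Ensembl canonical transcript (0.611) and with NEAT1 and MALAT1 left out (0.270), the latter settings chosen after seeing the data. It was 0.166 in the opposite strand column, where almost no reads of these genes lie, and 4.23 by CPM without length, where long genes weigh more. With 2 replicates, leaving one out gives the value of the other library and is no check of stability. Of 40 other alternative levels of single genes 11 moved by less than the replicate SD and 29 by more. The number of genes that differ between the libraries, 1099, was 1089 with median of ratios size factors, 858 with no minimum sum, 1067 from unstranded counts and 1147 with a sum of at least 200 counts (added after seeing the data), and MALAT1 and SFPQ were the 2 members called in each. No paired analysis was possible because there is only 1 condition. Depth limits the lower genes most, since RBM14 rests on 259 counts in replicate 2, an interval of 10.3 to 13.2 CPM per kb.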
